A study of Mus musculus with 18 samples.

Results

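The 9 genes described here encode adhesion receptors of naive and antigen-experienced T cells: Cd44 and 8 integrin subunits, Itgb1, Itga1, Itga4, Itga6, Itgal, Itgb2, Itgb7 and Itgae. They were taken by symbol, through GENCODE M21, from the 56748 gene IDs of the count files, and all 9 passed the filter on low counts that left 13690 genes for testing. RNA-seq was done on polyadenylated RNA of CD8 T cells isolated from the spleens of WT mice on 3 diets, with 6 libraries per diet. HFD mice had high fat diet for 12 weeks. SW mice were switched to normal diet after 6 weeks on high fat diet and stayed on it for 6 more weeks. ND mice had normal diet for 12 weeks. The labels give no strain, sex or age. Whether each library came from its own mouse is not stated, so the p-values measure only how these samples vary, and that variation may be technical.

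Integrins are pairs of an alpha and a beta chain that anchor a cell to the vessel wall, to other cells or to the matrix, and bind firmly after signals from chemokine or antigen receptors have changed their shape. Itgb1 is the shared beta chain of the receptors for collagen, laminin and fibronectin, in which Itga1, Itga6 and Itga4 are alpha chains. Itgal and Itgb2 form LFA-1, the receptor for ICAM-1, while Itgb7 pairs with Itga4 for homing to the gut and with Itgae for binding to E-cadherin on epithelium. Cd44 binds hyaluronan, and its surface level is a common mark of antigen-experienced CD8 T cells.

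Promoters of the 3 genes called between HFD and ND, Cd44, Itgb1 and Itga1, are shown because their RNA moved in the same direction. The sequences are from RefSeq, build GRCm38.p6, and run 5′ to 3′ on the gene's strand from 250 bases before the start site to 50 after it. Capitals mark matches, on either strand, to motifs searched by their letters. The windows are chr2:102901616-102901915 (minus strand) for Cd44, chr8:128685404-128685703 (plus strand) for Itgb1 and chr13:115101915-115102214 (minus strand) for Itga1.
Cd44: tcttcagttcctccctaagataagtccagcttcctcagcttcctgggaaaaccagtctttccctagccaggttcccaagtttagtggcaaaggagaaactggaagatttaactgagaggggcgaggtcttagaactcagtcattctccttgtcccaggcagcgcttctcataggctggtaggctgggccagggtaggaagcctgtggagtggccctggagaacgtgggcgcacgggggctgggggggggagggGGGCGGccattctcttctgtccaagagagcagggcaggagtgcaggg
Itgb1: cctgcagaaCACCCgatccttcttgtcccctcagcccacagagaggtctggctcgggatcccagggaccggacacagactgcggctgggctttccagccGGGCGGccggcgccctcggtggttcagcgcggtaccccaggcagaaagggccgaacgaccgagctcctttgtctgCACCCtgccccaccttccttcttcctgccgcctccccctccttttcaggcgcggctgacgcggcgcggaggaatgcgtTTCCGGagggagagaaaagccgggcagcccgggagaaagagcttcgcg
Itga1: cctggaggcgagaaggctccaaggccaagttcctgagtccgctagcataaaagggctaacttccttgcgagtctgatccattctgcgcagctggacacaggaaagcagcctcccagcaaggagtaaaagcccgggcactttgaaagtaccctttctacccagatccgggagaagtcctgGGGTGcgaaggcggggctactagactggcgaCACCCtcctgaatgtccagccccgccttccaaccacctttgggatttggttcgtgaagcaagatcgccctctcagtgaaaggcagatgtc

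The motifs were TGTGGT (RUNX), GGTGTGA (T-box), CACCC (KLF), CCGGAA (ETS) and GGGCGG (SP). The Cd44 window held 1 SP match, at position 4 after the start site. The Itgb1 window held 2 KLF matches, 1 ETS match and 1 SP match, and the Itga1 window held 2 KLF matches, 40 and 71 bases before the start site. No match overlapped another in these 3 windows, and no motif was found in all 3. Of the 32851 promoters in the table, 57.5% held a KLF match, 35.7% an SP match, 16.8% a RUNX match, 14.9% an ETS match and 3.98% a T-box match. The windows had a GC content of 58.0% for Cd44, 67.3% for Itgb1 and 56.7% for Itga1, against a median of 52.7% over all promoters. The table also matched Itga4 and Itgb7, and 5 of the 9 genes in all. The Itga4 window held 1 RUNX, 1 T-box, 4 KLF and 1 SP match, and the Itgb7 window held 4 KLF matches.

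Total counts per library ran from 11947339 to 16398340, and the common biological coefficient of variation was 0.115. Cd8a, a chain of the CD8 co-receptor, averaged 1482 ± 76.6 CPM (counts scaled to library size, SD, n = 6) in HFD, 1519 ± 64.9 in SW and 1494 ± 64.1 in ND, and edgeR called none of 7 CD8 T cell markers in HFD against ND, where 0 had an unadjusted p under 0.05. Cd4, the defining co-receptor of helper T cells, had 1 to 17 counts per library. On the first principal component HFD replicate 4 stood apart, at 55.0 against -8.83 to 6.31 for the others. It also had the highest summed erythroid markers, 347 CPM. On the second component replicates 1 and 2 of each diet lay above replicates 3 to 6 of the same diet. What these numbers stand for is not stated in the labels, so results are also given within these 2 sets of libraries.

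Per transcript length, the genes spanned a wide range, with Itgb7 the most abundant and Itga1 the least. Levels between genes are compared in the deposited FPKM (fragments scaled to gene length and depth), over all 18 libraries. Itgb7 averaged 348 ± 18.5 FPKM (SD, n = 18), Itgb2 169 ± 12.1 and Itgal 90.1 ± 8.27. Itgb1 averaged 50.2 ± 10.3 FPKM, Itgae 24.6 ± 3.68 and Itga4 19.1 ± 2.50. Itga6 followed at 11.5 ± 1.17 FPKM, Cd44 at 10.4 ± 1.46 and Itga1 at 0.113 ± 0.0507. Neighbours in this order had separate ranges over libraries in 5 of 8 cases. The ranges of Itgal and Itgb1 and those of Itgae and Itga4 overlapped, although the first gene lay above the second in 18 of 18 libraries. Itga6 and Cd44 did not differ beyond their spread, with Itga6 the higher in 13 of 18 libraries. Itga1 rested on 11 to 49 counts per library, whereas every other gene had at least 677.

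**Figure D1:**
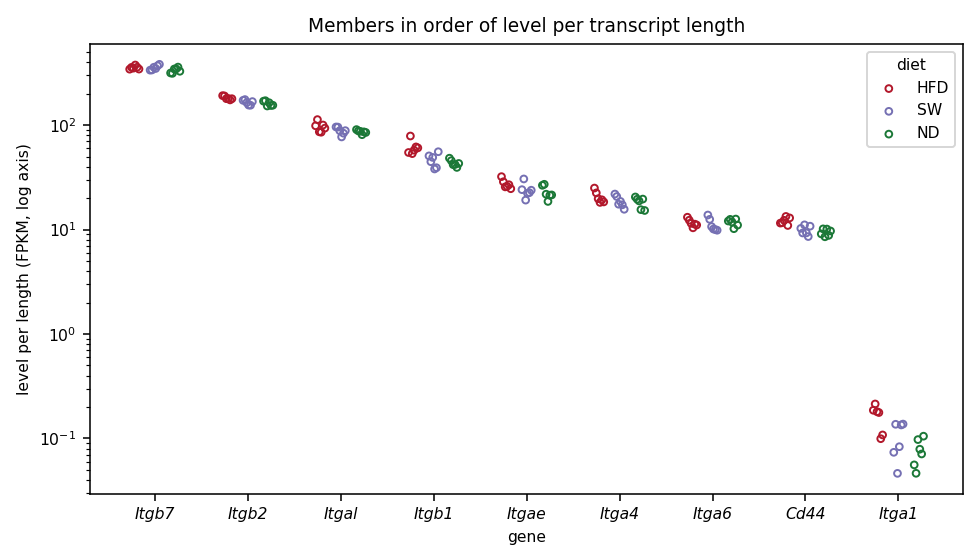
Deposited FPKM of the 9 genes on a log axis, 1 point per library, with HFD, SW and ND side by side for each gene and genes ordered by their mean over 18 libraries. Itgb7 lay at 348 FPKM on average and Itga1 at 0.113, with the other genes between 10.4 and 169.

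The summed FPKM of the 8 integrin chains was 753 ± 27.0 in HFD, 708 ± 24.3 in SW and 677 ± 11.2 in ND (SD, n = 6 each). Its range was 726 to 802 FPKM in HFD and 658 to 692 in ND, so these groups did not overlap. Itgb1 made up 8.08% ± 0.950 of the sum in HFD, 6.50% ± 0.783 in SW and 6.40% ± 0.486 in ND. Itgb7 made up 47.1% ± 1.99 in HFD, 50.2% ± 2.58 in SW and 49.3% ± 2.50 in ND. The chains come in pairs on the cell surface, and these RNA shares do not measure the pairs.

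Continued high fat diet was compared with normal diet to ask which adhesion genes differed at the end of the 12 weeks. Cd44, Itgb1 and Itga1 were higher in HFD, by 1.28-fold, 1.40-fold and 2.10-fold. These were 3 of the 9 genes called at an adjusted p under 0.05, where 1.62% of all tested genes were called and 0.665% were called higher. At an unadjusted p under 0.05 there were 6 of 9, against 14.9% of all genes. The log2 fold change was above 0 for 8 of 9, against 52.4% of all genes, and its median over the 9 was 0.17, against 0.0081 over all genes. The groups did not overlap for Cd44, Itgb1 and Itgb2, all higher in HFD, as was the case for 0.672% of all genes. In bulk RNA, fewer cells of a type and less RNA per cell cannot be told apart. Adjusted p-values for genes are from the edgeR quasi-likelihood test with Benjamini-Hochberg adjustment over all tested genes.

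Cd44, the hyaluronan receptor, lay between 71.4 and 87.8 CPM in HFD libraries, with a median of 77.5, and between 56.2 and 66.8 CPM in ND libraries, with a median of 61.5. Every HFD library exceeded every ND library. On the log2 scale the fold change was 0.36 ± 0.07 (SE, adjusted p = 0.00561), on means of 79.0 ± 6.26 CPM in HFD and 61.6 ± 4.47 in ND (SD, n = 6 each). Within replicates 3 to 6 the log2 fold change was 0.40 (adjusted p = 0.00869), and within replicates 1 and 2 it was 0.26 (adjusted p = 0.456). Without HFD replicate 4, which was the highest for Cd44, it was 0.32 (adjusted p = 0.0167). Cd44 spans chr2:102811141-102901665 on the minus strand, and no other annotated exon overlaps its own.

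Itgb1, the common beta chain of the collagen, laminin and fibronectin receptors, had 209 to 307 CPM in HFD libraries, with a median of 233, and 155.5 to 189.9 CPM in ND libraries, with a median of 168. All 6 HFD libraries lay above all 6 ND libraries, and HFD replicate 2 was far above the other 5 HFD libraries. Its log2 fold change was 0.49 ± 0.09 (SE, adjusted p = 0.00969), with means of 239.9 ± 35.4 CPM in HFD and 171 ± 12.3 in ND (SD, n = 6 each). Without HFD replicate 2 the log2 fold change was 0.40 (adjusted p = 0.0159), and without HFD replicate 4 it was 0.50 (adjusted p = 0.0177). The 2 sets of libraries gave nearly the same size, 0.49 within replicates 1 and 2 (adjusted p = 0.564) and 0.48 within replicates 3 to 6 (adjusted p = 0.0255). Itgb1 lies at chr8:128685654-128733200 on the plus strand.

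Itga1, the alpha chain that makes a collagen receptor with Itgb1 and is used as a marker of resident T cells in tissues, was the least abundant of the 9. It had 1.78 to 3.80 CPM in HFD libraries, with a median of 3.21, and 0.837 to 1.89 CPM in ND libraries, with a median of 1.35. The groups overlapped, with 5 of 6 HFD libraries above the highest ND library. The log2 fold change was 1.07 ± 0.28 (SE), with means of 2.88 ± 0.820 CPM in HFD and 1.36 ± 0.413 in ND (SD, n = 6 each), and its adjusted p of 0.0493 was just under the threshold. Leaving out 1 library at a time, the call was kept in 3 of 18 fits (without SW replicate 1, SW replicate 3 or HFD replicate 5). It was lost in the other fits. Over all 18 fits the adjusted p-values lay between 0.0377 and 0.113. The highest of these was without HFD replicate 2, where the log2 fold change was 0.97. Within replicates 1 and 2 the log2 fold change was 1.94 (adjusted p = 0.206), against 0.65 (adjusted p = 0.382) within replicates 3 to 6. The exons of Itga1, at chr13:114953096-115101964 on the minus strand, share 685 bases with the gene model Gm49395 on the same strand, which averaged 0.444 counts per library.

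The other alpha chains that pair with Itgb1 did not pass the test. Itga4, whose product joins Itgb1 in the VCAM-1 receptor and Itgb7 in the gut homing receptor, had 247 to 335 CPM in HFD libraries (median 262) and 206 to 277 CPM in ND libraries (median 260.2). The groups overlapped widely, and the 2 highest HFD libraries were replicates 1 and 2. Itga4 had a log2 fold change of 0.16 ± 0.09 (SE, adjusted p = 0.429). Itga6, a laminin receptor chain, had 92.2 to 115 CPM in HFD libraries (median 99.9) and 89.9 to 112 CPM in ND libraries (median 106). It was the only 1 of the 9 with a fold change below 0, a log2 value of -0.02 ± 0.08 (SE, adjusted p = 0.933), which changed sign within replicates 1 and 2 and without HFD replicate 4. Itga4 exons share 1124 bases with Cerkl on the opposite strand, but Cerkl averaged 19.7 counts per library against 3619 for Itga4.

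**Figure D2:**
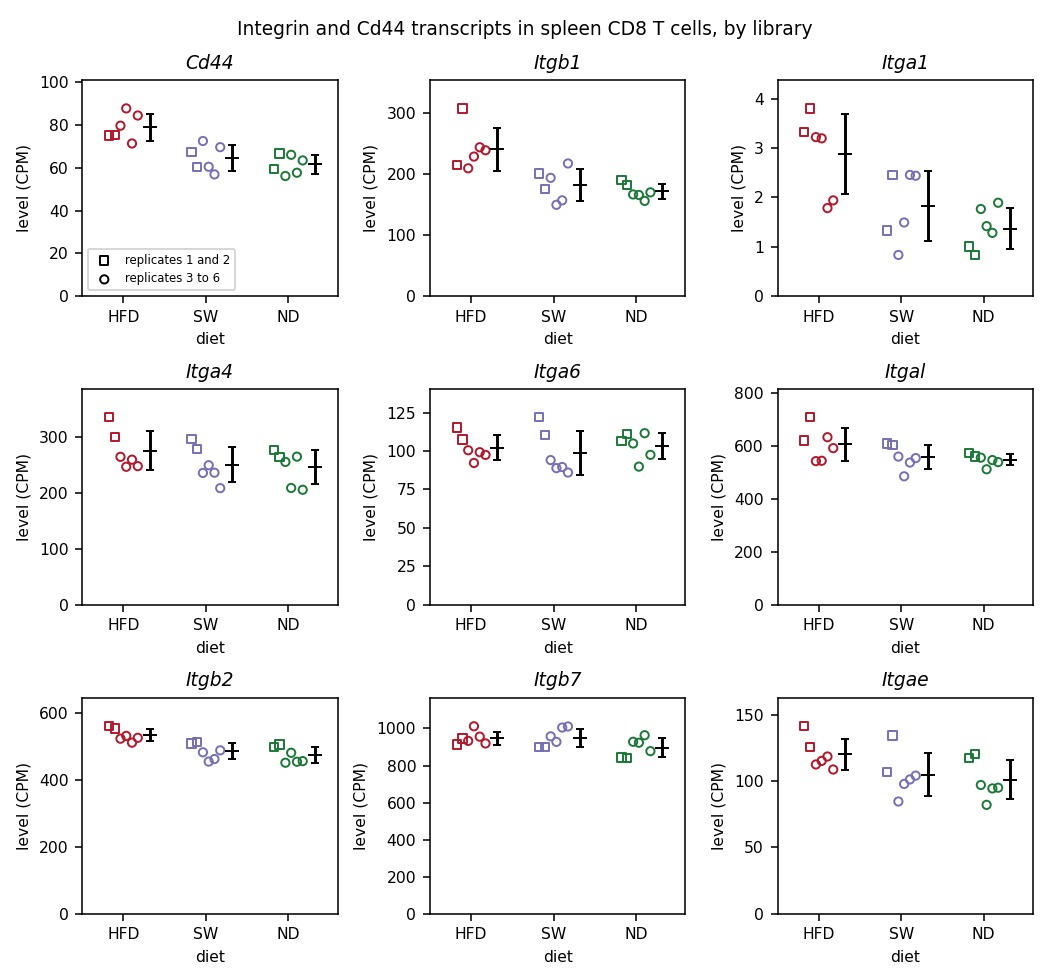
CPM of each of the 9 genes in every library, 1 panel per gene, with HFD, SW and ND from left to right and each panel on its own scale. Squares are replicates 1 and 2, circles are replicates 3 to 6, and bars give the mean ± SD of 6 libraries. HFD and ND points are apart for Cd44, Itgb1 and Itgb2, and HFD replicate 2 is the high point of Itgb1.

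The chains of LFA-1 were higher on average in HFD but were not called. Itgb2, the beta chain of leukocyte integrins, had 513 to 562 CPM in HFD libraries (median 530.0) and 452.5 to 507 CPM in ND libraries (median 469.8). No ND library reached the lowest HFD library. The difference was small, a log2 fold change of 0.17 ± 0.05 (SE), and its adjusted p was 0.0586. With the 2 sets of libraries as a factor in the fit, the same log2 fold change of 0.17 was called (adjusted p = 0.00661). Itgal, the alpha chain, had 544 to 709.5 CPM in HFD libraries (median 607.5) and 513 to 574 CPM in ND libraries (median 552). Of the 6 HFD libraries 4 lay above the highest ND library and the other 2 lay within the ND range. Itgal had a log2 fold change of 0.15 ± 0.06 (SE, adjusted p = 0.252).

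Itgb7 and Itgae, which together bind E-cadherin, were not called either. Itgae, also known as CD103, had 109 to 141 CPM in HFD libraries (median 117) and 82.2 to 121 CPM in ND libraries (median 96.1). All HFD libraries were above the ND mean, but only 2 were above the highest ND library, and in each diet replicates 1 and 2 were the highest. The log2 fold change of Itgae was 0.25 ± 0.10 (SE, adjusted p = 0.228). Once the 2 sets of libraries were a factor in the fit it was 0.26 and called (adjusted p = 0.00876), and within replicates 3 to 6 it was 0.29 and called (adjusted p = 0.0167). Itgb7, the most abundant of the 9, had 913.5 to 1012 CPM in HFD libraries (median 939.6) and 842 to 963.5 CPM in ND libraries (median 900.4). Its log2 fold change was 0.08 ± 0.05 (SE, adjusted p = 0.472), and 2 standard errors on either side allow a fold between 0.987 and 1.13. With the sets as a factor, 5 of the 9 genes were called in HFD against ND, since Itgb2 and Itgae joined Cd44, Itgb1 and Itga1. That fit also called more of all genes, 535 of 13690, where the fit without the factor called 222.

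**Figure D3:**
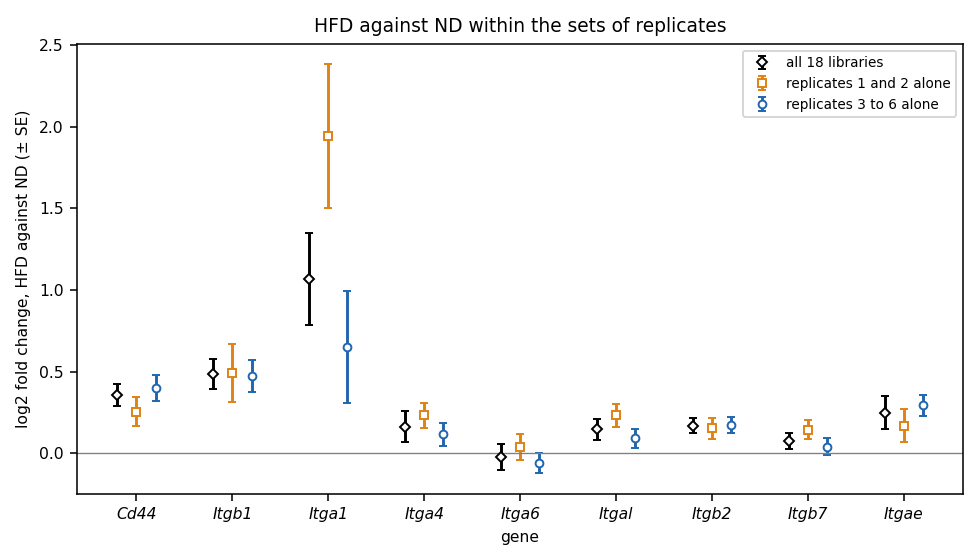
Log2 fold change of HFD against ND for each of the 9 genes, with SE bars, in all libraries, in replicates 1 and 2 alone and in replicates 3 to 6 alone. Cd44 and Itgb1 lie above 0 in all 3 fits, Itga1 is at 1.94 in replicates 1 and 2 and at 0.65 in replicates 3 to 6, and Itga6 lies near 0.

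The switched diet was set against both other diets to ask where these genes stood after the return to normal diet. In SW against ND, 0 of the 9 genes were called by edgeR and 0 had an unadjusted p under 0.05, where 0.0146% of all genes were called and 6.81% had an unadjusted p under 0.05. DESeq2 and limma-voom also called 0 of the 9. The median log2 fold change of the 9 was 0.05, against 0.0023 over all genes. In SW against HFD, 0 of the 9 were called by edgeR, where 0.124% of all genes were called. DESeq2 called 2, Cd44 and Itgb1, and limma-voom called 0. Among all 13690 genes DESeq2 called 112 in this comparison and limma-voom 8. By edgeR 4 of 9 had an unadjusted p under 0.05, against 11.1% of all genes, and the median log2 fold change was -0.14, against -0.004 over all genes. Both SW against ND and HFD against ND use the same ND libraries, and SW against HFD shares its HFD libraries with HFD against ND.

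Cd44 in SW libraries ran from 56.9 to 72.6 CPM, with a median of 63.9. The SW and ND ranges overlapped, 3 SW libraries lay above the highest ND library, and 5 of 6 SW libraries lay below the lowest HFD library. The log2 fold change was 0.07 ± 0.07 (SE) in SW against ND (adjusted p = 0.950) and -0.29 ± 0.07 in SW against HFD (adjusted p = 0.0711). The second value was called with the 2 sets of libraries as a factor (-0.29, adjusted p = 0.0170).

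Itgb1 was more variable in SW, with 149 to 217 CPM and a median of 184. Against ND, 3 SW libraries were above and 1 was below the whole ND range, while 5 of 6 lay below every HFD library. Its log2 fold change was 0.09 ± 0.09 (SE) in SW against ND (adjusted p = 0.960), and 2 standard errors on either side allow a fold between 0.935 and 1.21. In SW against HFD it was -0.40 ± 0.09 (adjusted p = 0.0807), with means of 182 ± 26.3 CPM in SW and 239.9 ± 35.4 in HFD (SD, n = 6 each). Without SW replicate 6, the highest SW library, it was -0.45 and called (adjusted p = 0.0311).

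Itga1 in SW spanned 0.832 to 2.45 CPM, with a median of 1.96, and so overlapped both other diets. Its log2 fold change was 0.43 ± 0.29 (SE) in SW against ND (adjusted p = 0.875) and -0.64 ± 0.27 in SW against HFD (adjusted p = 0.388). In SW against ND a fold between 0.903 and 2.02 lay within 2 standard errors, which is a wide range at these counts. Itgb2 had 456 to 516 CPM in SW, with a log2 fold change of -0.14 ± 0.05 (SE) against HFD (adjusted p = 0.258) and 0.03 ± 0.05 against ND (adjusted p = 0.994). Itga4, Itga6, Itgal, Itgb7 and Itgae had log2 fold changes between -0.07 and 0.08 in SW against ND, with adjusted p-values of at least 0.817.

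Over the 3 diets together, a test for any difference called Cd44 (adjusted p = 0.00972) and Itgb1 (adjusted p = 0.0136), 2 of the 9 genes, where 0.898% of all tested genes were called. The call of Itgb1 was lost in replicates 3 to 6 alone (adjusted p = 0.0531), where Itgae was called (adjusted p = 0.0343), and with no filter on low counts (adjusted p = 0.0675). Cd44 and Itgb1 both lost it in replicates 1 and 2 alone. Itga1 and Itgb2 both had an adjusted p of 0.104.

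**Figure D4:**
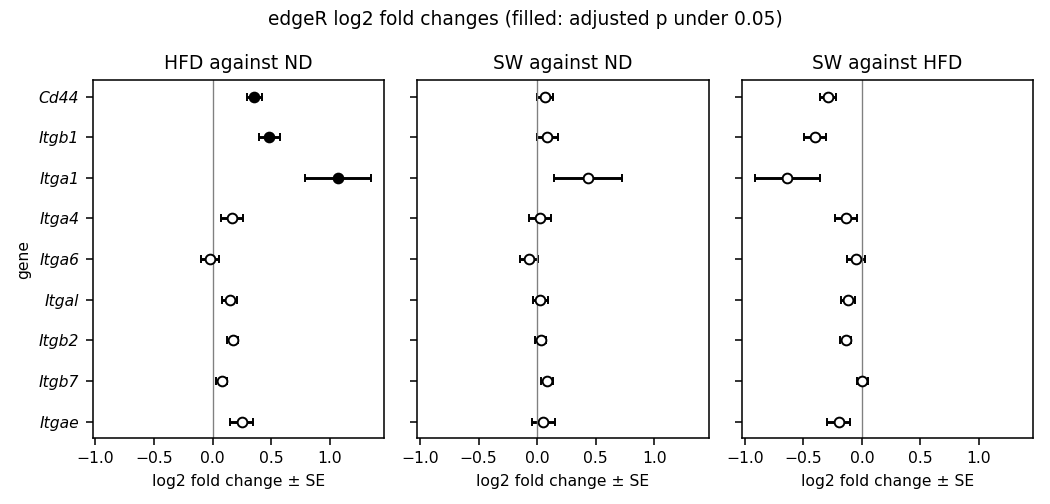
Log2 fold change with SE of each of the 9 genes in HFD against ND, SW against ND and SW against HFD, 1 panel per comparison, with filled points at an adjusted p under 0.05. The 3 filled points are Cd44, Itgb1 and Itga1 in HFD against ND, and in SW against ND no point is filled.

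Whether the chains that pair with each other moved together over the libraries was examined for 7 pairs, 6 of integrin chains and Cd44 with Itgb1. Cd44 and Itgb1 had a Pearson r of 0.76 over 18 libraries on log2 CPM (permutation test, two-sided, p = 0.00027, adjusted over the 7 pairs 0.00189) and a Spearman rho of 0.82 (p = 0.00011, adjusted 0.00077). Leaving out the 2 libraries farthest from the median of Cd44 gave an r of 0.76. HFD libraries form the high end of both genes, and on deviations from the diet mean r was 0.33 (permutation test, adjusted p = 0.314). That value, taken within diets, did not pass the threshold. The permutation over 18 libraries mixed the diets, so its p-value includes the diet difference that both genes showed. The r was 0.74 within replicates 1 and 2 of all diets (exact permutation test, n = 6, adjusted p = 0.185) and 0.86 within replicates 3 to 6 (permutation test, n = 12, adjusted p = 0.00553). Both of these also mix the 3 diets, so they do not show whether the genes moved together within a diet.

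Itgal and Itgb2, the 2 chains of LFA-1, had a Pearson r of 0.70 (permutation test, p = 0.00091, adjusted 0.00319) and a Spearman rho of 0.62 (p = 0.00696, adjusted 0.0244). Without the 2 libraries farthest from the median of Itgal r was 0.57. It was 0.56 on deviations from the diet mean (permutation test, p = 0.0147, adjusted 0.0629), 0.77 within replicates 1 and 2 (exact permutation test, n = 6, adjusted p = 0.185) and 0.48 within replicates 3 to 6 (permutation test, adjusted p = 0.395), none of which passed the threshold. For the other 5 pairs r lay between -0.28 and 0.48, with adjusted p-values of at least 0.103 in a permutation test. The highest of these was Itga1 with Itgb1, whose r of 0.48 became -0.12 on deviations from the diet mean. On these deviations Itgae with Itgb7 had an r of -0.55 (permutation test, p = 0.0180, adjusted 0.0629). Itga4 with Itgb7 had -0.51 (permutation test, p = 0.0313, adjusted 0.0730), and neither passed the threshold. Itga4 and Itga6 with Itgb1 had 0.05 and 0.18.

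**Figure D5:**
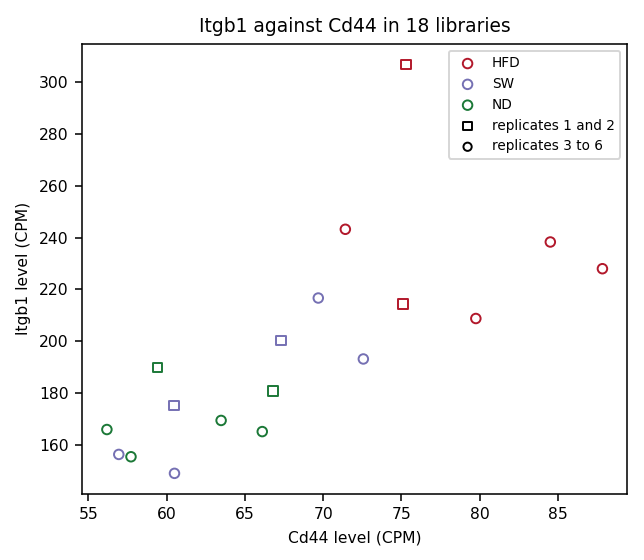
CPM of Itgb1 against CPM of Cd44 in the 18 libraries, by diet, with squares for replicates 1 and 2 and circles for replicates 3 to 6. HFD libraries lie at the upper right, with Cd44 at 71.4 CPM or more and Itgb1 at 209 or more, while SW and ND libraries overlap.

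The genes most like each called gene over the 18 libraries were ranked by Pearson r of log2 CPM among 11259 genes of at least 1 CPM, as a description. All points share the libraries' depth, diet and set. For Cd44 they were Prox2 (r = 0.88), Tbc1d22a (0.84), Chsy1 (0.84), Lpin1 (0.83) and Id2 (0.83), a regulator of effector CD8 T cells. Itgb1 was most like Fgf13 (0.90), N4bp1 (0.89), the thrombin receptor gene F2r (0.89), Trim59 (0.87) and Ppp1r9b (0.87). Itgb2 ranked at 26 (0.82), Itgal at 65 (0.78) and Cd44 at 84 (0.76) in the list of Itgb1. Itga1 was most like Vars2 (0.85), E2f8 (0.83), Farp1 (0.82), Spg7 (0.79) and Pnpla7 (0.78), and Itgb1 ranked at 500 (0.48). On deviations from the diet mean, Fgf13 (0.88) and N4bp1 (0.84) were again among the 5 most like Itgb1, after Wdtc1 (0.89) and before Ust (0.82) and Irgm2 (0.81). The corresponding genes were Psmd8 (0.81), Prg4 (0.76), Pum3 (0.75), Jchain (0.74) and Prox2 (0.73) for Cd44, and Rnft2 (0.82), E2f8 (0.81), Rad51ap1 (0.80), Vars2 (0.78) and Spg7 (0.76) for Itga1.

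The wider adhesion machinery, in 6 lists, gave no gene called by edgeR in HFD against ND, SW against ND or SW against HFD. Of 18 further integrin subunits, 11 were tested, with 2 at an unadjusted p under 0.05 and a median log2 fold change of 0.17 in HFD against ND, beside 0.0081 over all genes. Among integrin adaptors and activators, such as talins and kindlins, 28 of 33 were tested, 22 of them had a fold change above 0, 6 had an unadjusted p under 0.05, and the median was 0.06. Integrin ligands had 7 of 17 tested, 2 at an unadjusted p under 0.05 and a median of -0.09. Partners of Cd44 with hyaluronan genes had 14 of 19 tested, 2 at an unadjusted p under 0.05 and a median of 0.07. All 10 genes of selectin ligand synthesis were tested, 2 had an unadjusted p under 0.05 and the median was 0.12. All 15 tetraspanins and other adhesion molecules were tested, 4 had an unadjusted p under 0.05 and the median was 0.08. Over all genes 14.9% had an unadjusted p under 0.05 and 52.4% a fold change above 0, so several of these counts are near what all genes gave. The nearest to the threshold was Selplg, the protein backbone of the main P-selectin ligand, with a log2 fold change of 0.17 ± 0.05 (SE, adjusted p = 0.0502).

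Some markers of T cell history were also called in HFD against ND. Of 12 genes of antigen-experienced CD8 T cells, 2 were called higher, the chemokine gene Ccl5 at a log2 fold change of 0.56 ± 0.13 (SE, adjusted p = 0.0367) and the fractalkine receptor gene Cx3cr1 at 1.26 ± 0.31 (adjusted p = 0.0455). Over all genes 0.665% were called higher. The log2 fold change was above 0 for 10 of the 12, against 52.4% of all genes, with a median of 0.36. Tbx21 (44.7 CPM in HFD and 47.7 in ND) and Ly6c2 (511 and 552) were lower in HFD on average. Eomes was nearly equal, at 110.9 CPM in HFD and 110.1 in ND. Of 11 tissue residency genes, Prdm1, a transcription factor of effector and resident cells, was called at 0.91 ± 0.19 (SE, adjusted p = 0.0158), and 9 were above 0, with a median of 0.15. Prdm1 is also on the list of plasma cell markers given below, so its call is not particular to T cells. In SW against ND, 0 genes of these 2 lists were called by edgeR, 1 had an unadjusted p under 0.05, and the medians were 0.02 and 0.03. The lists were compiled with earlier results of these data known.

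Cells other than CD8 T cells also carry Cd44 and most of these integrins, and some of their markers were higher in HFD. The 11 genes of monocytes, macrophages and neutrophils summed to 38.0 to 54.8 CPM in HFD libraries and 28.2 to 43.0 CPM in ND libraries, with 8 tested, none called by edgeR in HFD against ND (4 had an unadjusted p under 0.05) and a median log2 fold change of 0.75. Dendritic cell markers summed to 77.8 to 155 CPM in HFD and 58.1 to 132 CPM in ND, and natural killer cell markers to 45.3 to 88.0 CPM in HFD and 31.3 to 51.3 CPM in ND. Most of the difference in natural killer markers lay in Gzma, a granule gene that CD8 T cells also carry, at 25.2 ± 15.6 CPM in HFD and 7.63 ± 5.62 in ND (SD, n = 6 each; log2 fold change 1.72, adjusted p = 0.122). Ncr1 (0.153 CPM in HFD and 0.564 in ND), Klrb1c (1.90 and 2.38) and Fcer1g (2.89 and 2.99) were not higher in HFD on average. Klre1 (19.15 CPM in HFD and 16.4 in ND), Klra8 (2.77 and 2.00) and Tyrobp (8.13 and 7.20) were higher on average. Of 6 natural killer markers tested, 4 had a log2 fold change above 0, against 52.4% of all genes, and the median was 0.20. Erythroid markers summed to 16.7 to 347 CPM in HFD and 18.2 to 46.3 CPM in ND, with 7 tested and a median of 1.98. B cell markers summed to 1001 to 1390 CPM in HFD and 695 to 1063 CPM in ND, and Ighm was called at 0.24 ± 0.06 (SE, adjusted p = 0.0361). CD4 T cell markers summed to 236.5 to 264 CPM in HFD and 213 to 234 CPM in ND, without overlap, and Ctla4 was called at 1.44 ± 0.34 (SE, adjusted p = 0.0428). Most of that sum was Cd5, which all T cells express, at 222 ± 9.60 CPM in HFD and 199 ± 7.36 in ND (SD, n = 6 each). Ctla4 varied widely, from 3.33 to 23.9 CPM in HFD libraries and from 3.05 to 5.79 in ND libraries. All 8 markers were tested, and 6 had a log2 fold change above 0, with a median of 0.18. Foxp3 (1.10 CPM in HFD and 0.955 in ND), Il2ra (1.68 and 1.72) and Tnfrsf4 (7.35 and 7.34) differed little. Cd4 itself was at 0.835 CPM in HFD and 0.274 in ND, with a log2 fold change of 1.52 ± 0.46 (SE, adjusted p = 0.0855), while Zbtb7b, a factor of the CD4 lineage, was at 6.30 CPM in HFD and 7.22 in ND. Plasma cell markers summed to 47.6 to 71.9 CPM in HFD and 41.7 to 53.9 CPM in ND. Of 4 tested, Prdm1 was called, and all 4 had a log2 fold change above 0, with a median of 0.75. At an unadjusted p under 0.05 there were 3 of these 4, against 14.9% of all genes. Jchain was at 9.24 CPM in HFD and 3.04 in ND. Gamma delta T cell, platelet and stromal markers overlapped between the diets, at 17.0 to 30.1, 31.9 to 41.4 and 1.57 to 3.46 CPM in HFD, and 18.4 to 24.5, 30.6 to 48.1 and 1.92 to 3.26 CPM in ND. Pf4, a defining platelet gene, had at most 2 counts in any library, and Pdgfra, a stromal gene, had 0 in every library. The part of these cells in the differences of Cd44 and the integrins was not tested.

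As a measure tied to RNA quality, replication-dependent histone RNAs, which mostly lack a poly-A tail, summed to 39.4 to 46.0 CPM in HFD and 26.5 to 36.6 CPM in ND, without overlap. Of 7 tested, 3 were called higher: the linker histone genes Hist1h1c, at 16.9 ± 3.63 CPM in HFD and 9.66 ± 2.40 in ND (SD, n = 6 each; adjusted p = 0.00997), and Hist1h1e (log2 fold change 2.03, adjusted p = 0.00501), and the core histone gene Hist1h4n (1.94, adjusted p = 0.0179). Of all tested genes, 0.665% were called higher. Hist1h1c made the largest difference to the sum, and Hist2h2be, the other abundant one, was at 13.8 CPM in HFD and 14.2 in ND. In SW libraries the histone sum ran from 34.3 to 43.3 CPM. Its median was 39.1 CPM in SW, 44.3 in HFD and 33.1 in ND. Hist1h4n was called lower in SW against HFD, where 0.124% of all genes were called. The part of these histone RNAs in the differences was not tested either.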

How the data were processed

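Per the labels' protocols, RNA of freshly isolated cells was selected with poly-T beads and primed with random hexamers. Strand is not stated, so sense and antisense reads cannot be told apart. The submitters' processing notes name fastp and the builds GRCm38 and mm10. For the aligner, the counter and the annotation, the name is not given in the sources used here. Raw counts per gene were deposited by the authors for each library, and so was FPKM. For 9534 genes FPKM equalled the count times a gene and a library factor, within 2.5e-09. Of the gene IDs, 52073 matched GENCODE M21.

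Counts were tested with edgeR 4.0.16 (R 4.3.3; quasi-likelihood, TMM, filterByExpr), with 18 libraries in 1 fit and diet as the only factor. Calls are at an adjusted p under 0.05 (Benjamini-Hochberg). The steps were tested on simulated data. All 9 genes are named; of the other lists, called genes (up to 4 per list); Selplg, Hist2h2be and uncalled cell markers were chosen after their values were seen. The genes and lists were chosen with earlier results of these data known. Whether replicate numbers pair the samples is not settled, and the main fit did not use them as pairs. The alternatives were other size factors and filters, DESeq2 1.42.0, limma 3.58.1 (voom with sample weights, and log2 FPKM with an added 0.1 or 1), a replicate block, the 2 sets of libraries, fits of only the diets compared, and leaving out each library.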

Additional observations from a re-analysis of the deposited data

Results flagged for a closer look

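Itgb1 in HFD replicate 2 was far from the other HFD libraries, at 306.8 CPM against 243.2 CPM for the next highest and 208.8 CPM for the lowest. Its gap to the next library was 0.65 of the group's range, above Dixon's 95% critical value of 0.625 for 6 samples. Of 27 groups tested (9 genes on 3 diets) this was the only one past that value, and chance flags about 1 in 20. Without this library Itgb1 was still called in HFD against ND, at a log2 fold change of 0.40 (adjusted p = 0.0159).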

How the results depend on the processing

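In HFD against ND, Cd44 (log2 fold change 0.26 to 0.40) and Itgb1 (0.40 to 0.52) were called in 31 of 32 alternatives each, all but replicates 1 and 2 alone, and Itga1 in 9 of 32. The cause of the differences below was not tested. Genes called in HFD against ND, SW against ND and SW against HFD (222, 2 and 17) became 479, 61 and 112 with DESeq2, 359, 29 and 8 with limma-voom, and 598, 49 and 138 with the replicate block. They became 535, 22 and 116 with the 2 sets as a factor, and 5, 0 and 2 in replicates 1 and 2 alone. In SW against ND the count was 1 with RLE, upper quartile or library size scaling, 31 with no filter, 5 in replicates 3 to 6 alone, 19 with only the 2 diets fitted and 0 on log2 FPKM with an added 0.1 or 1. In SW against HFD it was 53 with no filter, 0 with only the 2 diets fitted and 1 on either log2 FPKM scale. Scaling by library size alone gave 78 of 257 called genes higher in HFD against ND (91 of 222 with TMM) and 16 of 24 in SW against HFD (8 of 17).

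Of the 9 genes, the block called 6 in HFD against ND, 1 in SW against HFD (Cd44, adjusted p = 0.0104) and 4 for any difference. It added Itga4 (adjusted p = 0.0448), Itgb2 (0.00963) and Itgae (0.0104) in HFD against ND. Of 18 same-number correlations, 7 were over 0.1, and 14 of 36 best matches had the same number. The 2 sets of libraries share these numbers, so these values do not settle whether the numbers pair the samples. The sets as a factor called 5, 1 and 4. No filter called 1 in SW against HFD and 1 for any difference, DESeq2 called 2 in SW against HFD, and replicates 1 and 2 alone called 0 in HFD against ND and 0 for any difference. Leaving out 1 library gave 89 to 301, 0 to 16 and 0 to 44 genes, and 0 to 1 of the 9 in SW against HFD.

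Sign changes were all of values that were not called. Itga4 in SW against ND was -0.00948 with limma-voom, -0.00608 in replicates 3 to 6 and -0.0226 to 0.0790 over fits without 1 library. Itgal in SW against ND was -0.0109 in replicates 3 to 6. In replicates 1 and 2, Itga6 was 0.0382 in HFD against ND, 0.0890 in SW against ND and 0.0508 in SW against HFD, and Itgb7 was -0.0541 in SW against HFD. Without 1 library, Itga6 in HFD against ND was -0.0644 to 0.00465, Itgae in SW against ND -0.0287 to 0.11 and Itgb7 in SW against HFD -0.00694 to 0.0300. The r of Itga1 with Itgb1 was -0.12 on deviations. In replicates 1 and 2 and in replicates 3 to 6, r was 0.69 and 0.11 for Itga4 with Itgb7, 0.34 and 0.31 for Itgae with Itgb7, and -0.19 and -0.0602 for Itga6 with Itgb1. Over all 18 libraries r was -0.28, -0.22 and 0.13 for these 3 pairs. The low counts of Itga1 limit its precision. On log2 FPKM with an added 1 its log2 fold change in HFD against ND was 0.11, since the pseudocount understates changes of low genes.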
